A study of Mus musculus with 7 samples.

Results

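The Hox genes of the mouse lie in 4 clusters, HoxA to HoxD, and the arrays used here carried 44 probes for 37 of them among 41174 probes in all. A probe was taken as a member where the array's annotation gave it a symbol of the form Hoxa, Hoxb, Hoxc or Hoxd with a number. HoxA had 11 genes with a probe, HoxB 10, HoxC 8 and HoxD 8, with 1 probe for 30 genes and 2 probes for 7. Hoxc11 and Hoxd8 had no member probe. A gene was tested where at least 3 of the 7 arrays had one of its probes well above background in one channel or both. By this filter 34 Hox genes were tested among 29826 genes and unnamed probes, and Hoxb8, Hoxd11 and Hoxd13 were not. Hoxb3 is uncertain, since the accessions listed for its probe include one of Hoxd3.

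The arrays compared lymph nodes that drain different organs, excised from female mice at 12 weeks of age. Each sample was RNA pooled from 5 mice of a single strain, and no treatment was given. Pancreatic lymph node (PLN) RNA carried the red dye Cy5 on all 7 arrays, and a probe's dye effect and a difference of the PLN cannot be told apart. RNA of the mesenteric lymph node (MLN), the node of the gut, was labelled with green Cy3 on 4 arrays, which came from BALB/c, FVB, NOD and NOD.B10 mice. On 3 arrays of FVB, NOD and NOD.B10 mice the Cy3 RNA was that of the inguinal lymph node (ILN), to which skin of the groin and mammary tissue drain. NOD is an inbred strain prone to autoimmune diabetes, and NOD.B10 carries another major histocompatibility complex on that background. A node of a strain was thus sampled as 1 pool on an array, and the p-values measure the spread between pools of different strains. RNA of whole nodes holds lymphocytes, stroma and attached tissue, and fewer cells of a type and less RNA per cell cannot be told apart.

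Hox genes encode homeodomain transcription factors that give cells their place along the head-to-tail axis of the embryo. Their order on the chromosome follows the order in which they are expressed along that axis, from the low-numbered paralogues of the hindbrain and neck to the high-numbered ones of the lumbar and tail region. Fibroblasts and other stromal cells of the adult keep part of this positional pattern, and some Hox genes are also active in blood progenitors. The nodes compared here lie at different places of the trunk, 2 of them in the abdomen and 1 under the skin of the groin.

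The Hox probes were dim in every node, and so was the median probe of the arrays. The median Hox spot was 62.3 to 184.3 intensity units per channel, over a median local background of 45.5 to 64.5. In the PLN channel 7 to 26 of the 44 were well above background per array (15.9% to 59.1%), while over all probes the share was 45.9% to 59.0%. In the MLN channel the number was 12 to 35 (27.3% to 79.5%, against 50.7% to 83.2% of all probes). In the ILN channel it was 26 to 40 (59.1% to 90.9%, against 67.5% to 88.9%). The shares thus lay below that of all probes in the PLN channel of 6 of 7 arrays, and on the BALB/c array both were close, at 59.1% and 58.7%. In the ILN channel the Hox share lay above that of all probes on the FVB and NOD.B10 arrays and below it on the NOD array. Over all probes the median spot was 67.8 to 104.8 intensity units in PLN, 86.1 to 141.8 in the MLN channel and 90.2 to 199.2 in the ILN channel. These shares compare channels of different dye and brightness. No Hox spot was saturated.

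**Figure D1:**
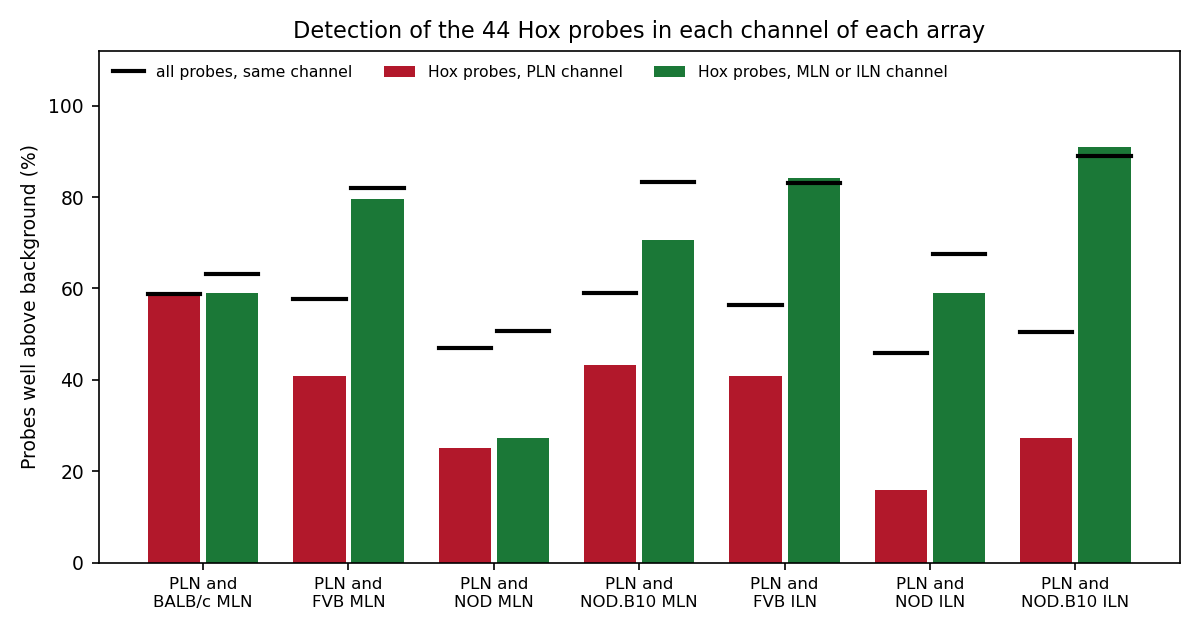
Bars give the share of the 44 Hox probes well above background in percent, in the PLN channel (red) and in the MLN or ILN channel (green) of each of the 7 arrays, and black lines give the share of all 41174 probes in the same channel. The PLN bars lie under their lines on 6 arrays, by the most on the NOD ILN array at 15.9% against 45.9%.

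Counted per gene, with a gene above background where any of its probes was, Hoxa7, Hoxb2, Hoxb6, Hoxb7 and Hoxd4 were above background in both channels of all 7 arrays. In the MLN 12 of 37 genes were above background on all 4 arrays, and in the ILN 23 of 37 on all 3. The share of all genes by the same rule was not counted. Over all probes 50.7% to 83.2% were above background in MLN and 67.5% to 88.9% in ILN. The file headers give the BALB/c and NOD MLN arrays a scanner name that the other arrays do not have. It is called the earlier scanner here, and that of the other arrays the later scanner. These are labels, and no order in time was read from the headers. The counts per node, here and below, thus cannot be told apart from the brightness of the channels. Not well above background in the PLN on any array were 9 genes, Hoxa11, Hoxb9, Hoxc8, Hoxc9, Hoxc12, Hoxc13, Hoxd11, Hoxd12 and Hoxd13, and their paralogue numbers run from 8 to 13. Of the 18 probes of paralogues 9 to 13, the PLN channel had 0 to 8 above background per array, the MLN channel 3 to 14 and the ILN channel 8 to 17. Of the 15 probes of paralogues 1 to 4, it had 3 to 12 in PLN, 4 to 11 in MLN and 9 to 14 in ILN. Hoxb8 was above background in MLN on 2 arrays, in PLN on 1 and in ILN on none, and Hoxd11 and Hoxd13 in ILN only, on 1 and 2 arrays. The lymphocyte markers Cd79a, Ms4a1, Cd3e, Cd3g and Ccr7, set for comparison, were above background in every channel.

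In PLN over MLN 0 of the 34 Hox genes passed limma's test at an adjusted p under 0.05, and 0 of 29826 genes did (0%). At an unadjusted p under 0.05 there were 9 Hox genes, 3 higher and 6 lower in PLN, which is 26.5% against 15.5% of all genes. In PLN over ILN 2 Hox genes passed, Hoxb2 higher and Hoxc9 lower in PLN, against 1.96% of all genes (1.5% higher and 0.463% lower). The Hoxc9 probe passed the filter through the MLN and ILN channels alone. At an unadjusted p under 0.05 there were 10 Hox genes (29.4% against 20.4%). In ILN over MLN, taken as the difference of both comparisons, 0 Hox genes passed, against 0.255% of all genes (0.0436% higher and 0.211% lower), and 2 had an unadjusted p under 0.05 (5.88% against 6.6%). The PLN comparisons share the node in the red channel and are given side by side.

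On the main scale, which adds an offset of 50 to each corrected signal, the ratios of most Hox genes were small. Over the 34 genes the log2 ratios had a median of -0.038 against MLN, -0.040 against ILN and 0.0028 in ILN over MLN, beside -0.0015, -0.0030 and -0.00067 over all genes. Without regard to sign the medians were 0.075, 0.084 and 0.088, beside 0.073, 0.090 and 0.073 over all genes. Below 0 lay 26 of 34 Hox genes in PLN over MLN and 22 of 34 in PLN over ILN, beside 15079 and 15164 of 29826 genes. Of the 34, 7 were above background in no PLN channel and 0 in PLN channels only, so that the filter can favour ratios below 0 and these counts support no shift. When arrays were centred on their median rather than corrected by loess, the median over all genes moved to 0.072, -0.033 and 0.13, and the Hox medians to -0.107, -0.113 and 0.034. The ranges of the Hox genes were -0.51 to 0.36, -0.60 to 0.39 and -0.23 to 0.37. The size of a ratio depended on the processing. Over the alternatives, Hoxa4 in PLN over MLN ran from 0.243 to 2.74 and Hoxc9 from -2.31 to -0.253.

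**Figure D2:**
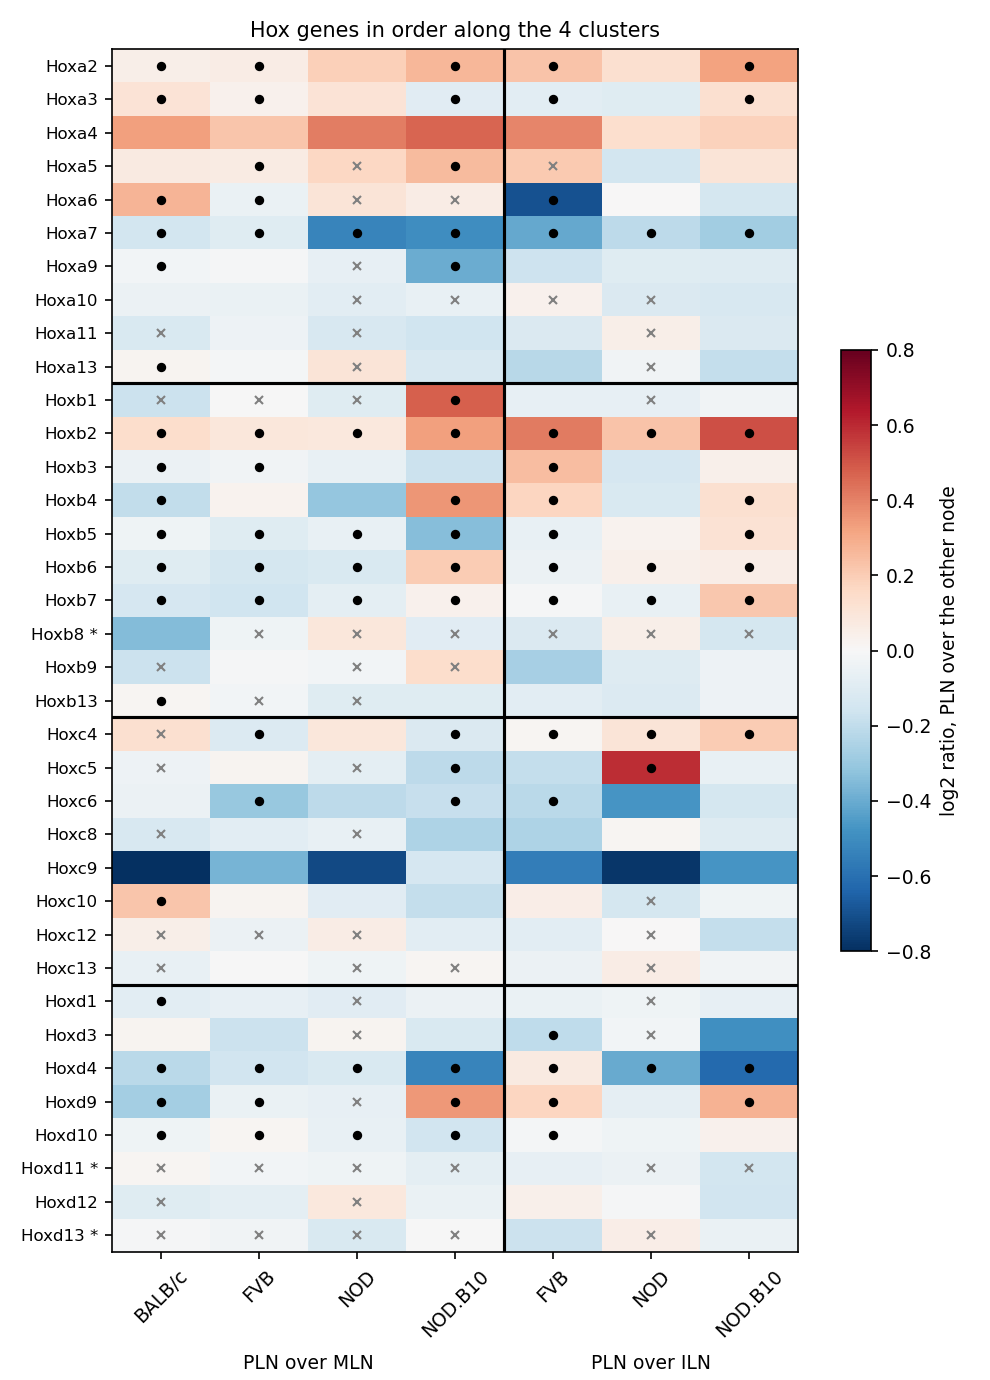
Each of 36 rows is a Hox gene in order along its cluster and each column an array, and the colour gives the log2 ratio of PLN over MLN (left 4 columns, by strain) or over ILN (right 3 columns). Dots mark probes well above background in both channels, crosses those in neither, and stars the 3 genes that failed the filter; on this loess scale Hoxc9 is below 0 and Hoxb2 above 0 on all 7 arrays, and with median centring Hoxb2 is at -0.011 on the NOD ILN array.

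Hoxc9, a gene of the thoracic part of the embryo's trunk and of posterior mesenchyme, was lower in PLN than in ILN. Its spot measured 118.2, 193.2, 113.9 and 120.3 intensity units in the MLN channel of the BALB/c, FVB, NOD and NOD.B10 arrays, over a local background of 46.0 to 55.0. On the same arrays it measured 68.0, 90.0, 64.3 and 79.5 in the PLN channel, over a background of 51.0 to 62.0. In the ILN channel of the FVB, NOD and NOD.B10 arrays it measured 182.2, 178.0 and 228.5, and in the PLN channel 85.5, 73.1 and 90.8. The probe was thus well above background in every MLN and ILN channel and in 0 of 7 PLN channels. Its log2 ratio in PLN over ILN was -0.55, -0.78 and -0.47 on the FVB, NOD and NOD.B10 arrays. The mean ILN level of Hoxc9 was 1.52-fold that of the PLN (limma, adjusted p = 0.047). The bound from the dim PLN channel equalled this measured mean, and it is no lower limit for single arrays. On the log2 scale the mean of PLN over ILN was -0.60 with a standard error of 0.122, below 0 on 3 of 3 arrays. The probe passed the filter through the MLN and ILN channels alone, so that this call may be partly set by the filter.

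In PLN over MLN the log2 ratio of Hoxc9 was -0.80 in BALB/c, -0.37 in FVB, -0.72 in NOD and -0.14 in NOD.B10. All 4 lay below 0, and they spread over the range of the ILN arrays. The mean MLN level was 1.42-fold that of the PLN, which did not pass the test (limma, adjusted p = 0.131). On the 2 MLN arrays of the later scanner alone, FVB and NOD.B10, the mean was -0.25 (adjusted p = 0.492). The difference of ILN over MLN was 0.09 with a standard error of 0.162 (adjusted p = 0.968). It was 0.18 in FVB, 0.06 in NOD and 0.33 in NOD.B10.

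The size of the Hoxc9 ratio depended on how dim signals were treated. With an offset of 0 it was -1.24 in both PLN comparisons. With Agilent's LogRatio, which replaces dim signals by surrogates, it was -2.18 against ILN and -2.28 against MLN, and in the deposited values -2.21 and -2.31. None of these passed the test (adjusted p = 0.0501 to 0.288 over the 3 settings). Against ILN the adjusted p was 0.0683 without background correction, 0.0526 without the filter and 0.992 with median centring. It also missed the threshold without the FVB ILN (0.114), NOD ILN (0.109), NOD.B10 ILN (0.253), FVB MLN (0.0819) or NOD MLN array (0.0538). Without the BALB/c or the NOD.B10 MLN array it was 0.049 and 0.0242, and within the later scanner 0.0267.

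**Figure D3:**
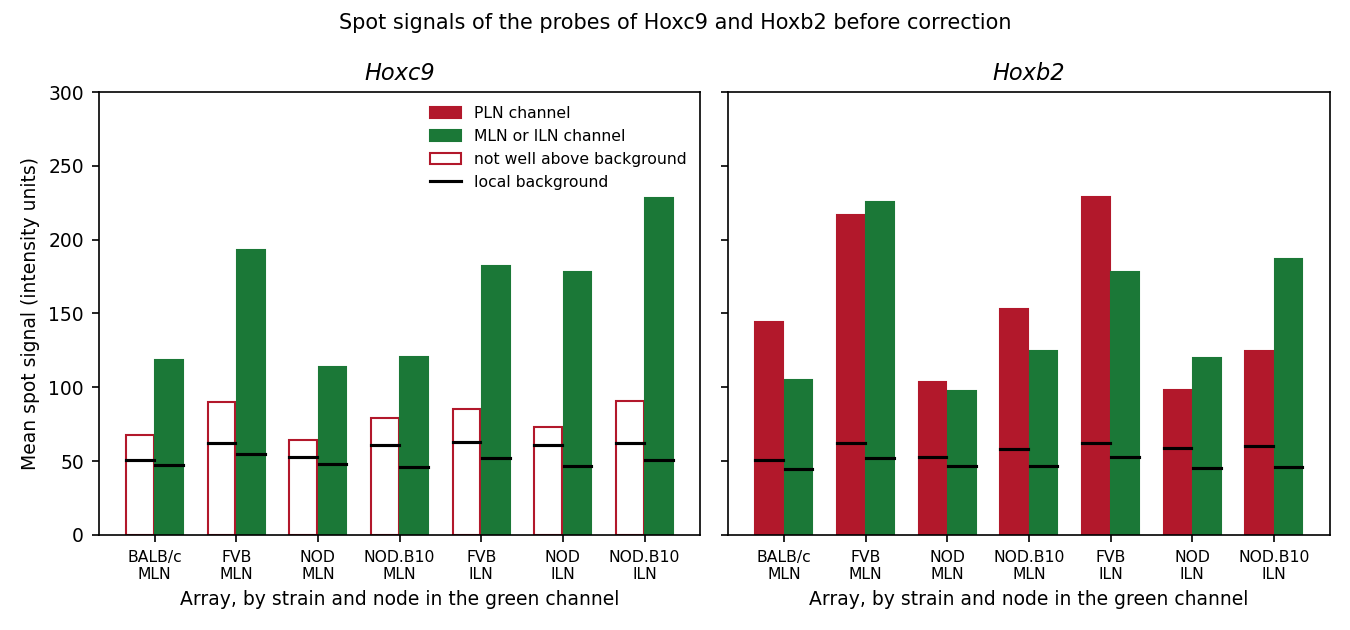
Bars give the mean spot signal, in intensity units before any correction, of the probes of Hoxc9 (left) and Hoxb2 (right) in the PLN channel (red) and the MLN or ILN channel (green) of each array, with the local background as a black line; open bars were not well above background. The PLN bar of Hoxc9 is open on all 7 arrays, at 64.3 to 90.8, and every bar of Hoxb2 is filled.

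Hoxb2, which acts in the hindbrain and neural crest of the embryo, was higher in PLN than in ILN. Its spot was well above background in all 14 channels. In the PLN channel it measured 228.6, 97.9 and 124.6 intensity units on the FVB, NOD and NOD.B10 arrays of the ILN, beside 178.4, 119.9 and 187.2 in the ILN channel. On the NOD and NOD.B10 arrays the ILN spot was thus the brighter one before correction, as it was over all probes, whose median spot there was 75.5 and 99.7 in PLN and 90.2 and 199.2 in ILN. After normalization the log2 ratio was 0.41, 0.23 and 0.52. The mean was 0.39 with a standard error of 0.0725, a 1.31-fold ratio, above 0 on 3 of 3 arrays (limma, adjusted p = 0.0362).

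In PLN over MLN Hoxb2 had log2 ratios of 0.14, 0.09, 0.08 and 0.33 on the BALB/c, FVB, NOD and NOD.B10 arrays. The mean of 0.16 had a standard error of 0.0628 and did not pass the test (limma, adjusted p = 0.288). Both groups of arrays overlapped, since the NOD.B10 value against MLN exceeded the NOD value against ILN. The ILN was below the MLN by this path in FVB (-0.33), NOD (-0.14) and NOD.B10 (-0.19), with a fitted difference of -0.23 (standard error 0.096, adjusted p = 0.736), which median centring turned to 0.032. In PLN over ILN the ratio was 0.65 with an offset of 0, 0.82 by the scanner's LogRatio and 0.78 in the deposited values, and in each of these it missed the threshold (adjusted p = 0.143 to 0.203). It also missed it with median centring (adjusted p = 0.992) and within the later scanner (0.0868). The same held without the BALB/c (0.0662), FVB (0.0692) or NOD MLN array (0.0538) and without the FVB (0.116) or NOD.B10 ILN array (0.322).

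Next to Hoxb2 in its cluster, no gene of HoxB had an unadjusted p under 0.05 in a PLN comparison. Hoxb1, a hindbrain gene, was at 0.05 in PLN over MLN and -0.05 in PLN over ILN, with 0.48 on the NOD.B10 MLN array and -0.17 to -0.0045 on the other MLN arrays. Hoxb3 was at -0.08 and 0.05. Hoxb4, which promotes the expansion of blood stem cells, was at -0.03 and 0.06 and ranged from -0.31 on the NOD to 0.35 on the NOD.B10 MLN array. Hoxb5, Hoxb6 and Hoxb7 were at -0.13, -0.04 and -0.09 in PLN over MLN and at 0.03, 0.02 and 0.05 in PLN over ILN. Hoxb9 was at -0.02 and -0.14, and Hoxb13, a gene of the tail bud and prostate, at -0.05 and -0.08. Of the 9 tested HoxB genes 7 lay below 0 in PLN over MLN and 3 in PLN over ILN. The paralogue of Hoxb2 is Hoxa2, which gives the second pharyngeal arch its identity, and HoxC and HoxD have none.

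Hoxa2 and Hoxa4 were above 0 in PLN on all 7 arrays, as Hoxb2 was, and Hoxa7, Hoxa9, Hoxc6, Hoxc9 and Hoxd1 were below 0 on all 7. These are 3 and 5 of 34 genes, where 7.25% and 7.08% of all genes were above and below 0 on every array. These signs hold on the loess scale. With median centring Hoxa9, Hoxc6 and Hoxc9 were below 0 on all 7 arrays, and each of the other 5 genes had at least 1 array on the other side. For Hoxb2 this was the NOD ILN array, at -0.011. With LogRatio and in the deposited values Hoxa9 and Hoxd1 were not below 0 on every array. Of the genes that were not called, Hoxa2, Hoxa4, Hoxa7, Hoxc6 and Hoxd4 had an unadjusted p under 0.05 in both PLN comparisons, and they were chosen for description after their values were seen. The table of RefSeq promoters used here held 21 of the 37 Hox genes, among them Hoxa2, Hoxa7 and Hoxd4. These 3 promoters are shown because their genes had ratios of opposite sign, Hoxa2 above and Hoxa7 and Hoxd4 below 0. Each is the 250 bases before the transcription start on the gene's strand, in the GRCm38.p6 build.
Hoxa2, chr6:52164832-52165081, minus strand: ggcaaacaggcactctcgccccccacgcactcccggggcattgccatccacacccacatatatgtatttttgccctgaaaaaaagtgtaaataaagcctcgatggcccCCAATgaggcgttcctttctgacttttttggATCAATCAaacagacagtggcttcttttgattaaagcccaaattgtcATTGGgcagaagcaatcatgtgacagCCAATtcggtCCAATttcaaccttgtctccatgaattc
Hoxa7, chr6:52218574-52218823, minus strand: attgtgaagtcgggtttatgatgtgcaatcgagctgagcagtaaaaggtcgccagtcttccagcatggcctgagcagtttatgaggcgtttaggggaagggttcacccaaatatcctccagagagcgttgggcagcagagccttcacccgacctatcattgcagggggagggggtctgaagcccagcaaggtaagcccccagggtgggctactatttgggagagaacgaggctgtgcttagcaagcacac
Hoxd4, chr2:74721728-74721977, plus strand: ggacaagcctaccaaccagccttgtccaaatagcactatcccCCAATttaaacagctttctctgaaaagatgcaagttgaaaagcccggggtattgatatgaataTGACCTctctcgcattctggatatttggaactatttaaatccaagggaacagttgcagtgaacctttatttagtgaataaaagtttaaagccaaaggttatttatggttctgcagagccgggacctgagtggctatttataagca

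Capitals mark matches, on either strand, to 3 motifs that do not overlap in these windows. They are TGATNNAT, a composite site of Hox proteins with their Pbx partners, AGGTCA, a half-site of nuclear receptors such as the retinoic acid receptors, and CCAAT, the CCAAT box. The Hoxa2 window held 1 match to TGATNNAT and 4 to CCAAT, the Hoxd4 window 1 each to AGGTCA and CCAAT, and in the Hoxa7 window these letters were not found. Over all 32851 promoters of the table, windows of the same length held TGATNNAT in 7.68%, AGGTCA in 14% and CCAAT in 33.8%. Of the 23 Hox promoters, 4, 5 and 13 held them. A match is a description of the letters and not a bound site.

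Hoxa4, a gene of the neck region, had the lowest unadjusted p of the Hox genes in PLN over MLN and was not called. Its log2 ratio was 0.33, 0.22, 0.41 and 0.46 on the BALB/c, FVB, NOD and NOD.B10 arrays of the MLN and 0.39, 0.14 and 0.18 on the FVB, NOD and NOD.B10 arrays of the ILN. The probe was well above background in PLN on 4 of 4 MLN arrays and in MLN on none of them. By the bound, the mean level in PLN was 1.25-fold that in MLN, which is no lower limit for single arrays. The measured ratio against MLN was not called (limma, adjusted p = 0.105), and the ratio against ILN of 0.24 had an adjusted p of 0.123. Against ILN the probe was above background in PLN on 1 array and in ILN on 2. A second probe of Hoxa4 measured 0.13 and 0.15. The ratio of the first was 2.74 against MLN by LogRatio, 2.70 in the deposited values and 1.12 with an offset of 0, none of which passed (adjusted p = 0.171 to 0.288). It passed without background correction (0.37, adjusted p = 0.0492) and with array weights (0.34, adjusted p = 0.0344).

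**Figure D4:**
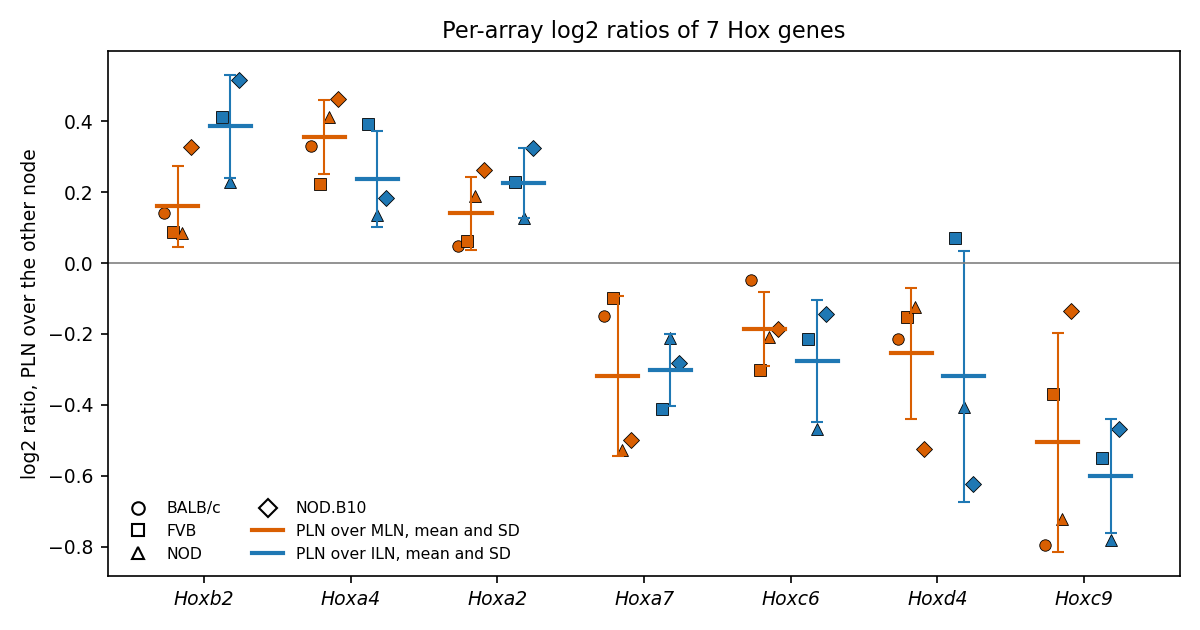
Points give the log2 ratio of PLN over MLN (orange) or over ILN (blue) of 7 Hox genes on each array, shaped by strain, with the mean as a bar and the SD as an error bar (n = 4 and n = 3). Hoxb2, Hoxa4 and Hoxa2 lie above 0 on all 7 arrays, Hoxa7, Hoxc6 and Hoxc9 below 0 on all 7, and Hoxd4 below 0 on 6, on the loess scale. With median centring Hoxb2, Hoxa4, Hoxa2 and Hoxa7 each had at least 1 array on the other side.

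Hoxa2 measured 0.05, 0.06, 0.19 and 0.26 against MLN in BALB/c, FVB, NOD and NOD.B10, and 0.23, 0.13 and 0.32 against ILN in FVB, NOD and NOD.B10. Its means of 0.14 and 0.23 did not pass the test (limma, adjusted p = 0.29 and 0.115), though the second passed with array weights (0.255, adjusted p = 0.0488). Hoxa7, a gene of the thoracic region, was among the 5 that every channel measured above background. Against MLN it was at -0.15, -0.10, -0.53 and -0.50 in BALB/c, FVB, NOD and NOD.B10, so that both NOD-derived arrays lay well under the other two. Against ILN it was at -0.41, -0.21 and -0.28. The means of -0.32 and -0.30 did not pass (adjusted p = 0.175 and 0.139), and median centring turned the first to 0.15. The retinoid-responsive Hoxd4, which patterns the neck vertebrae, was at -0.22, -0.15, -0.12 and -0.53 against MLN, and at 0.07, -0.41 and -0.62 against ILN in FVB, NOD and NOD.B10. Its means were -0.25 and -0.32 (adjusted p = 0.311 and 0.204), and median centring turned the first to 0.147.

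Along HoxA the genes from Hoxa2 to Hoxa6 lay above 0 and the 5 from Hoxa7 to Hoxa13 below 0 in PLN over MLN. Hoxa3, which the thymus and parathyroid need to form, was at 0.04, Hoxa5, a gene of lung and neck, at 0.14 and Hoxa6 at 0.097. On the other side Hoxa9, which is active in blood progenitors, was at -0.12, Hoxa10, a gene of the uterus and lumbar region, at -0.062, Hoxa11, which patterns the middle of the limb, at -0.11, and Hoxa13, of the digits and hindgut, at -0.0041. Of the 11 tested HoxA genes 4 had an unadjusted p under 0.05. With median centring Hoxa5 and Hoxa6 were at -0.010 and -0.065, so that the split held on the loess scale and not on that one. In PLN over ILN Hoxa3 was at -0.017, Hoxa5 at 0.055 and Hoxa6 at -0.28, and all 5 genes from Hoxa7 to Hoxa13 lay below 0. The Hoxa6 mean rested on the FVB array, at -0.69, beside 0.00079 in NOD and -0.14 in NOD.B10.

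As a description over genes of these arrays, which share RNA and dye, the paralogue number in HoxA went with a lower PLN over MLN ratio at Pearson's r = -0.534 and Spearman's rho = -0.682 (n = 11 genes). In PLN over ILN the values were -0.492 and -0.609. HoxB had r = -0.407 and -0.528 (n = 9), HoxC 0.0823 and -0.179 (n = 8) and HoxD 0.437 and 0.555 (n = 6). Over all 34 genes r was -0.266 and -0.278, and in ILN over MLN 0.0935. Of the 13 tested genes with numbers 9 to 13, 6 passed the filter through the MLN or ILN channel alone, so that a ratio below 0 may be partly set by the filter and these correlations support no order. Among the 13, Hoxc9 alone had mean ratios more than 0.15 from 0 on the main scale with its offset of 50.

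HoxC held Hoxc9 and the second gene with the same sign on every array, Hoxc6, a gene of the thoracic region and mammary gland. Hoxc6 was at -0.05, -0.30, -0.21 and -0.19 against MLN in BALB/c, FVB, NOD and NOD.B10, and at -0.22, -0.47 and -0.14 against ILN. Its means of -0.19 and -0.28 did not pass the test (limma, adjusted p = 0.262 and 0.104), and the probe was above background in PLN on 3 of 7 arrays. Hoxc8, the neighbour of Hoxc9, was at -0.13 and -0.11 and was above background in no PLN channel. Hoxc10, of the lumbar region and hindlimb, was at -0.010 and -0.040, and it reached 0.22 on the BALB/c array. Hoxc4 was at -0.0025 and 0.11, and Hoxc5 at -0.077 and 0.11, where the NOD ILN array alone was at 0.59. Hoxc12 and Hoxc13, the latter a gene of hair and nail, were within 0.1 of 0 in both.

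Of the other HoxD genes, Hoxd3 was at -0.063 against MLN and -0.24 against ILN, where the NOD.B10 array was at -0.49. Its second probe measured -0.036 and -0.19. Hoxd9, the paralogue of Hoxc9, was at -0.011 against MLN and 0.12 against ILN, and its second probe was at -0.092 and 0.24. The other paralogues of Hoxc9 were Hoxa9, at -0.12 in both comparisons, and Hoxb9. Hoxd1 was at -0.074 and -0.052 with an SD of 0.019 and 0.016 on the main scale. Its probe was above background in PLN on 1 array, and its deposited values ran from -1.2 on the FVB MLN to 0.379 on the NOD ILN array. Hoxd10, a gene of lumbar motor neurons, was at -0.057 and -0.0061, and Hoxd12, of the distal limb, at -0.035 and -0.040. The untested Hoxd11 and Hoxd13, which pattern forearm and digits, had mean ratios of -0.029 and -0.039 against MLN and -0.087 and -0.057 against ILN. The untested Hoxb8 was at -0.095 and -0.071.

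For the 7 genes with 2 probes, both probes had the same sign in PLN over MLN in 6 and in PLN over ILN in 5. They disagreed for Hoxb8 in both comparisons and for Hoxa3 against ILN, where the probes were at 0.14 and -0.017.

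ILN over MLN addressed whether the node of the groin differs from that of the gut. Its values per strain are the difference of 2 arrays. The fitted values and their tests set the 4 MLN arrays, BALB/c included, against the 3 ILN arrays. Either way a dye effect of a probe is removed where it is the same on all arrays. Whether it was the same was not tested. No Hox gene had groups of arrays that did not overlap (0 of 34), against 7.31% of all genes. The strains often differed in sign. In all 3 strains Hoxa6, Hoxa13, Hoxb9, Hoxc9, Hoxc12 and Hoxd3 were above 0 in ILN over MLN and Hoxb2, Hoxb5, Hoxb7 and Hoxc4 below 0. These are 6 and 4 of 34 genes, beside 13% and 12.6% of all genes. Hoxa6 measured 0.64 in FVB, 0.10 in NOD and 0.20 in NOD.B10, with a fitted 0.37 (standard error 0.159, limma, adjusted p = 0.733) that fell to 0.166 without the FVB ILN array. Hoxb9 measured 0.25, 0.08 and 0.18, and Hoxa13 0.21, 0.13 and 0.06, and neither passed (adjusted p = 0.898 and 0.842). Hoxb5 measured -0.035, -0.089 and -0.46, and Hoxb7 -0.15, -0.018 and -0.18. Opposite signs between strains were seen for Hoxa7, at 0.31 in FVB and -0.32 in NOD, and for Hoxc5, at 0.21 in FVB and -0.67 in NOD.

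**Figure D5:**
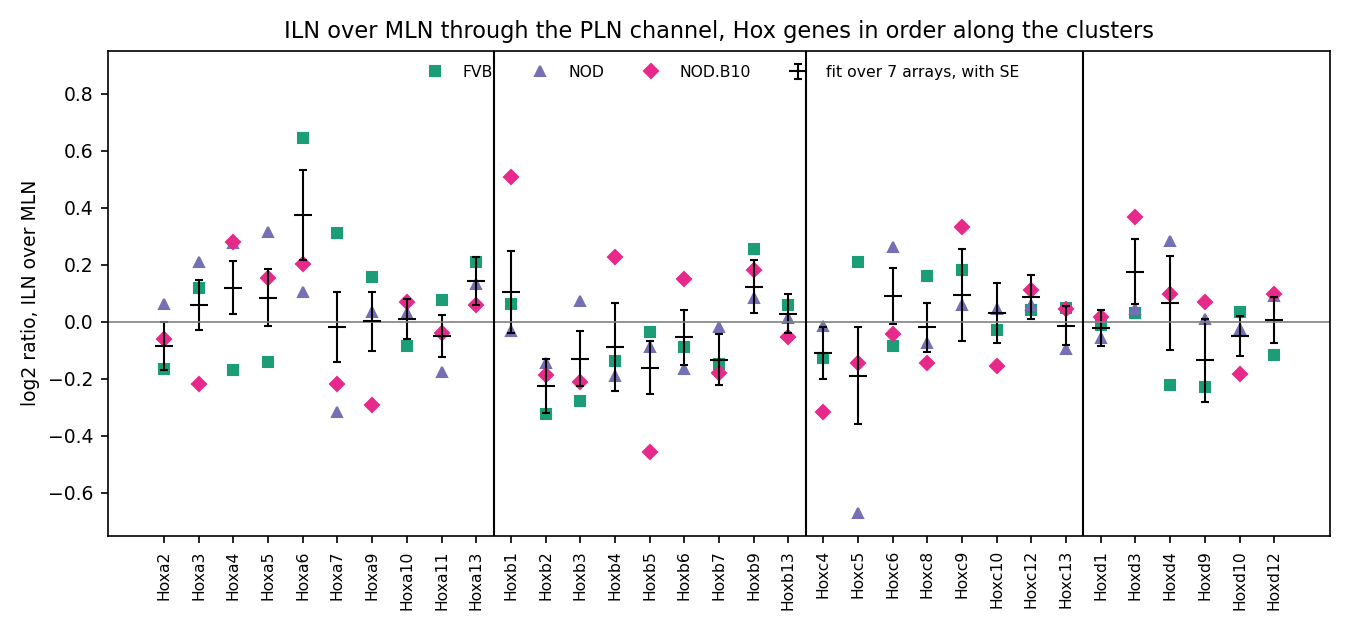
Points give the log2 ratio of ILN over MLN of 33 of the 34 tested Hox genes in FVB, NOD and NOD.B10, each the difference of 2 arrays, and black bars the fitted value with its standard error. Most genes scatter about 0 with strains on both sides, and Hoxb2 and Hoxa6 are the 2 genes with an unadjusted p under 0.05.

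Hox proteins bind DNA with TALE cofactors of the Meis, Pbx and Pknox families, and their clusters are held silent by Polycomb and active by trithorax proteins. Of 44 such genes listed, 36 had a named probe and 35 were tested. In PLN over MLN 0 passed, and in PLN over ILN Meis2 alone was higher and none lower, beside the 1.96% of all genes. Meis2 was at 0.74, 0.41 and 0.33 on the FVB, NOD and NOD.B10 arrays of the ILN (mean 0.49, standard error 0.089, limma, adjusted p = 0.033). On the MLN arrays it was at -0.10, 0.24, 0.04 and 0.099, so that the groups of arrays did not overlap, and ILN over MLN was -0.42 (adjusted p = 0.372). Pbx3 was above 0 on all 7 arrays, with means of 0.20 and 0.28 that did not pass (adjusted p = 0.281 and 0.144). Hoxaas2, a long RNA of the HoxA cluster whose probe was named through an older clone symbol, was at 0.29 and 0.39, above 0 on all 7 arrays, and did not pass (adjusted p = 0.175 and 0.062). Evx2, the homeobox gene beside Hoxd13, had the largest ratio of the list against MLN, -0.33, which rested on -1.09 on the BALB/c array (adjusted p = 0.364).

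Of the 16 Polycomb group genes, their demethylases included, 0 passed in any comparison. The histone demethylase Kdm6a was at -0.28 in PLN over ILN (limma, adjusted p = 0.0755). The 5 tested upstream genes and the 3 trithorax genes had 0 calls and no unadjusted p under 0.05. The median of the 35 genes was -0.035 in PLN over MLN, 5.49e-05 in PLN over ILN and -0.035 in ILN over MLN. In the last, 0 were called and 5 of 35 had an unadjusted p under 0.05 (14.3%), beside 6.6% of all genes.

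Some markers of the cells that could carry Hox RNA also differed between nodes, and their part in the Hox ratios was not tested. Over all genes 1.5% were called higher and 0.463% lower in PLN over ILN, and 0% in PLN over MLN. With median centring 0% were called in PLN over ILN, so that the marker calls below hold on the loess scale. Fibroblastic stroma had 10 to 11 of its 11 tested markers above background in each channel, and summed levels of 25140 to 79650 in PLN, 25350 to 78740 in MLN and 22710 to 28900 in ILN. The upper ends in PLN and MLN came from the BALB/c and NOD MLN arrays, which were of the earlier scanner. On the later scanner, which read all ILN arrays, the range was 25140 to 35660 in PLN and 25350 to 32040 in MLN. In PLN over ILN 3 of the 11, Dcn, Lum and Fn1, were called higher and 0 lower, while 6 lay below 0 and the median was -0.0073. For white adipose markers the median was 0.86 on the log2 scale in PLN over ILN (-0.27, 1.32 and 1.58 on the FVB, NOD and NOD.B10 arrays) and -0.12 in PLN over MLN, with 0 of 10 called in either. Lymphatic endothelium had 3 of 5 markers higher in PLN over ILN, with summed levels of 1159 to 1620 in PLN and 744.7 to 805.4 in ILN. Smooth muscle had 2 of 7 lower in PLN over ILN. Pancreatic acinar markers had 4 of 7 called higher in PLN over ILN and 0 of 7 in PLN over MLN, where the array medians ran from 0.224 on the BALB/c to 5.32 on the NOD array. Their medians of 4.45 and 3.57 are not exact, since 6 of the 7 had saturated spots. Haematopoietic progenitor markers had medians of 0.23 and 0.45 in the PLN comparisons with MLN and ILN, with 0 and 1 of 5 higher. In PLN over ILN lymphocyte markers had 1 of 7 lower and intestinal epithelium 1 of 5 higher. Skeletal muscle, skin and mammary epithelium, and mesothelium had 0 calls in any comparison. Ccl21a and Wt1, of the stromal and mesothelial lists, did not pass the filter.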

How the data were processed

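Each 2-colour Agilent array compared PLN RNA in Cy5 with MLN or ILN RNA in Cy3, and arrays were grouped by their labels. The NOD.B10 arrays have NOD as their strain entry and NOD.B10 in title and source name, which was used. The scanner files hold spot intensity values, written by Agilent Feature Extraction 8.5.1.1 per the file headers, with a deposited log10 ratio (LogRatio) that replaces dim signals by surrogates. The deposited value table of the series holds log2 ratios. Set against the scanner values, it equalled log2 of the red over green processed signal less a constant per array, so that scale and direction were found from the data and the reason for the constants stays unknown. The array medians of the deposited log2 values were 0.0073 to 0.0935.

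Mean spot signals were corrected with normexp (offset 50) and loess within each array, with control and outlier spots at weight 0, in limma 3.58.1 under R 4.3.3. Outlier spots were dropped before the spots of each probe were averaged, and probes well above background in either channel on 3 or more of the 7 arrays were kept (35817 of 41174, 87%). The brightest kept probe stood for a gene. Names came from RefSeq (GRCm38.p6) by accession for 22072 probes and from the array's description for 2100, and 17002 were unnamed. The sources used here do not give the build of the probe coordinates, and none is printed. limma's lmFit and eBayes gave PLN over MLN, PLN over ILN and their difference, with 5 residual and 3.85 prior degrees of freedom. Tests were two-sided, with Benjamini-Hochberg adjustment over all 29826 genes. Levels per channel, used for bounds and summed levels, were taken after loess and Aquantile scaling. A bound sets the mean of the brighter group against the dim group's mean of, per array, the higher of the lowest signal among probes well above background and the probe's own. The number of arrays limits the precision. No array was left out, and 0 columns of samples were unused.

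The Hox genes, their partner genes and the marker lists were chosen with earlier results of these data known. Values per array are given for Hox genes that were called, that had groups of arrays without overlap or that were above background in only one kind of node, and for their neighbours in the cluster or paralogue group. Of the partner genes, those called and the 3 with the largest ratios per comparison are named, except that some genes the rule would name are not reported here. The scripts were tested on simulated data. In PLN over ILN they recovered 71% of 100 genes changed by 0.5 on the log2 scale and 96% of 100 changed by 1, among 29431 genes, with 5 false calls. The changes were added to simulated normalized ratios, with noise drawn separately for each gene and array. These shares thus leave out the effect of the offset on dim probes and are no power for the Hox genes. Alternatives were median centring, an offset of 0, no background correction, LogRatio, the deposited table, no filter, a filter on all arrays, the mean of a gene's probes, array weights, the scanner as a block, the later scanner alone, the strain as a block, green-channel levels and leaving out each array.

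To see whether arrays of a strain vary together, their deviations from the group means were correlated over all genes. The r was 0.0291 for FVB, 0.178 for NOD and 0.152 for NOD.B10, and the labels do not say that both arrays of a strain used the same mice, so the strain does not pair them in the main test.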

Additional observations from a re-analysis of the deposited data

Results flagged for a closer look

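In PLN over MLN 34 Hox genes were searched for an array far from the other 3, and the NOD.B10 array stood apart for 2 of them. Chance marks about 1 in 20 groups. For Hoxa9 its log2 ratio was -0.396, beside -0.0646 to -0.0064 on the BALB/c, FVB and NOD arrays. For Hoxb6 it was 0.202, beside -0.139 to -0.0993 on the others.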

How the results depend on the processing

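The alternatives are compared by the number of genes called over all genes (main values 0 in PLN over MLN, 584 in PLN over ILN and 76 in ILN over MLN), the number of Hox genes called (0, 2 and 0) and the Hox median log2 ratio (-0.038, -0.040 and 0.0028). With median centring the Hox medians were -0.107, -0.113 and 0.0345. No Hox gene and 0 genes in all were then called in PLN over ILN, and 0 genes in ILN over MLN. Hoxa7 and Hoxd4 turned to 0.15 and 0.147 in PLN over MLN, and Hoxb2 to 0.0319 in ILN over MLN. With an offset of 0 the medians were -0.108, -0.138 and -0.016, with 49 genes and 0 Hox genes called in PLN over ILN and 3 genes in ILN over MLN. Without background correction 37 genes were called in PLN over MLN, 1 of them a Hox gene, and 1 Hox gene in PLN over ILN, and the ILN over MLN median was -0.0208. LogRatio gave medians of -0.159, -0.209 and 0.0571, 65 genes and 0 Hox genes in PLN over ILN and 12 genes in ILN over MLN. The deposited values gave -0.108, -0.118 and 0.0985, with 32, 0 and 0 in the same order. Without the filter 1 Hox gene was called in PLN over ILN, which was Hoxb2. The filter on all 7 arrays left 14 Hox genes with medians of -0.0673, 0.0223 and -0.0531, and 115 genes were called in ILN over MLN. With array weights 189, 1560 and 178 genes were called, with 2 Hox genes in PLN over MLN, Hoxa4 and Hoxc9, and 3 in PLN over ILN, Hoxa2, Hoxb2 and Hoxc9. The scanner as a block gave a PLN over MLN median of -0.0632 and 18 genes in ILN over MLN. The later scanner alone gave the same median, 20, 332 and 7 genes and 1 Hox gene, Hoxc9, in PLN over ILN. Green-channel levels gave 0 genes in ILN over MLN. Apart from the effect of fewer arrays or genes tested, the cause was not tested.

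With the strain as a replicate block, which uses the 6 arrays of 3 strains, 26 genes and 0 Hox genes were called in ILN over MLN, and the Hox median was -0.00944. Leaving out each array in turn gave 0 to 46, 32 to 736 and 15 to 88 genes called in the 3 comparisons. It gave 0 to 0, 0 to 2 and 0 to 0 Hox genes, and Hox medians of -0.0551 to -0.0266, -0.0525 to -0.0376 and -0.0173 to 0.0115. Over 376 values of 21 results of single Hox genes, 348 kept direction and side of the threshold, 21 lost it, 4 gained it and 3 reversed. Most of these results were not called in the main fit, and for them keeping the side meant staying uncalled. All 21 losses fell on the 2 calls in PLN over ILN. Hoxb2 was called there in 8 of 18 settings and Hoxc9 in 7 of 18. Low signal over background limits all ratios of Hox genes, most of all those not above background in the PLN.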

Other observations

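Of 6 probes described as Hox genes without a symbol of the rule, the one for the mRNA HOX 2.2 was well above background in both channels of all 7 arrays. Its log2 ratio was 0.01, 0.07, -0.01 and 0.33 on the BALB/c, FVB, NOD and NOD.B10 arrays of the MLN, and 0.33, -0.14 and -0.06 on the FVB, NOD and NOD.B10 arrays of the ILN. A probe for a predicted homeo box D8 was above background on 6 arrays in either channel. Over the 34 tested Hox genes, the ratios of the BALB/c MLN array correlated with those of the FVB and NOD MLN arrays at r = 0.644 and 0.797, beside 0.157 and 0.344 over all genes. With the NOD.B10 MLN array the values were 0.156 and 0.134. Pairs of the same node without BALB/c had Hox values close to or below those over all genes. Their values over all genes were higher than those of the BALB/c pairs. On the MLN arrays FVB with NOD had 0.672 beside 0.646, FVB with NOD.B10 0.47 beside 0.572 and NOD with NOD.B10 0.393 beside 0.515. On the ILN arrays FVB with NOD had 0.3 beside 0.441, FVB with NOD.B10 0.611 beside 0.619 and NOD with NOD.B10 0.503 beside 0.69. Pairs across nodes without BALB/c lay on both sides. FVB MLN with NOD ILN had 0.641 beside 0.477, and NOD MLN with NOD.B10 ILN 0.446 beside 0.514. BALB/c MLN with NOD ILN had 0.579 beside 0.0791. These are descriptions over genes of arrays that share the dye of the PLN.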
